A study of Drosophila melanogaster with 3 samples.

Results

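The genes described here encode the protein factors that run translation and the enzymes that charge transfer RNAs. They were 84 of 13968 protein-coding genes on the chromosome arms of Drosophila melanogaster (18277 genes of all kinds), chosen by symbol from the Ensembl annotation of dm6. They comprised 44 initiation factor genes (eIF), 8 elongation factor genes (eEF), 18 cytosolic aminoacyl-tRNA synthetase genes and 14 mitochondrial synthetase genes. Their start sites were examined in ChIP-seq peak lists for the CG10565 protein.

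The samples formed 1 group of 3 biological replicates, numbered 1, 2 and 4 in the labels. Each was chromatin of whole embryos of both sexes, 0 to 24 hours of age, from a line that stably expresses CG10565 with eGFP at its C terminus, sonicated to 200 to 800 bp and precipitated with an anti-GFP antibody. All 3 replicates carry the tagged protein, and the sources used here name no line without it and no second condition. Whole embryos mix all cell types, so a site bound in few cells and a site bound weakly in many cannot be told apart.

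CG10565 belongs to the J-domain proteins and is related to human DNAJC2 and yeast Zuo1, chaperones that sit on the ribosome near the exit of the nascent chain. Initiation factors bring the initiator tRNA, the small subunit and the mRNA cap together, elongation factors deliver charged tRNAs and move the ribosome along the message, and each synthetase joins an amino acid to its tRNA. Most of these genes are active in nearly every cell. In flies many such housekeeping promoters carry the DNA replication-related element (DRE), and many genes of the translation machinery start at a TCT initiator in place of the common one.

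Each list gives a call, its summit and the authors' signal for it, which ranks calls within that list only. The lists of the pool and of each replicate held 30000 calls apiece, which by the authors' file descriptions are peaks together with background, so a low-ranked call may be background. The authors' optimal list by irreproducible discovery rate (IDR), meant to keep calls that recur across replicates, held 1143, which were the pooled calls with the highest signal. A place in it need not mean a call in every replicate. Replicate 2 had none at the start sites of eIF4EHP and ThrRS, which are in that list. A member counted as having a call where a summit lay within 500 bp of one of its annotated transcription start sites (TSSs), and its rank is that of its strongest such call. Read counts were not used here and depth is unknown. With 1 group and no counts no test was made, and the share of protein-coding genes that met the same rule is given beside the counts over all members. For the counts by role the shares to set beside them are 45% for a pooled call and 5.93% for an IDR summit. Start sites drew different shares of each list, namely 29.7% of the summits of replicate 1, 17% of replicate 2 and 23.9% of replicate 4.

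The strongest calls lay at the start sites of 9 members, and the sequence under 7 of them is shown because it places the summit against the start site. Each run is the dm6 sequence in the member's direction, numbered from 1 at its 5′ end, and reaches 30 bp beyond the summit and the start site. Capitals mark matches to the 6 motifs searched on both strands, described further on.
eEF1gamma (chr3R:29220104-29220202, plus strand; summit at base 31, TSS at base 69): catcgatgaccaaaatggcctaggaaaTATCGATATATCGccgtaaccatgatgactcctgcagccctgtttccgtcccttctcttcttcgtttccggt
IleRS (chr3L:22288468-22288695, plus strand; summit at base 31, TSS at base 198): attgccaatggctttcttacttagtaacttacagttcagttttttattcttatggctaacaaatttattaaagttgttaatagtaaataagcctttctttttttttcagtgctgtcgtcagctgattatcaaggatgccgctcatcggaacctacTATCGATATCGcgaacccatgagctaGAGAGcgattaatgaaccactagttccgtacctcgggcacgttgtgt
GluProRS (chr3R:23958361-23958559, minus strand; summit at base 31, TSS at base 169): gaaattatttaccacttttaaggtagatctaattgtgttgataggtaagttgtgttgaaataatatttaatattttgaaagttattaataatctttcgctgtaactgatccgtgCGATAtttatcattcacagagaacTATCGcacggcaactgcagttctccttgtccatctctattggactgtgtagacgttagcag
SerRS (chr2L:3037335-3037433, minus strand; TSS at base 31, summit at base 69): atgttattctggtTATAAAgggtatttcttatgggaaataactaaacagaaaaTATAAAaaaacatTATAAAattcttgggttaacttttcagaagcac
ThrRS (chr2L:12103584-12103781, plus strand; summit at base 31, TSS at base 168): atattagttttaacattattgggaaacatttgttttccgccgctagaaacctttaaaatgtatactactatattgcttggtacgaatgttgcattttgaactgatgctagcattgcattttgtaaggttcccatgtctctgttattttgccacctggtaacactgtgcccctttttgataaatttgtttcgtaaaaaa
eIF4EHP (chr3R:24108930-24109191, minus strand; summit at base 31, TSS at base 232): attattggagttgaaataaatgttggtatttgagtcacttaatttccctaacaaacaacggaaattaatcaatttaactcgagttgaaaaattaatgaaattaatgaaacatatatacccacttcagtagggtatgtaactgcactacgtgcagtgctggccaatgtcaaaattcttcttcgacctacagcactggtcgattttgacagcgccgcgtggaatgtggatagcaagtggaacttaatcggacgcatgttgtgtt
eIF1 (chr3L:3222930-3223041, plus strand; summit at base 82, start sites of the neighbour RpL28 at bases 29 and 31): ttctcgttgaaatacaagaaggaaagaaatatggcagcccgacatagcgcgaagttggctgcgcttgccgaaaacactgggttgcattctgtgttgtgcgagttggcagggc

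In the eEF1gamma run a DRE begins at base 28 and covers the summit. The IleRS run holds a DRE from base 156, nearer to the TSS than to the summit. In the SerRS run the start of CG17260, which is read the other way, lies at base 23, close to that of SerRS at base 31, so both genes start back to back. No match stood in the runs of ThrRS, eIF4EHP and eIF1.

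Of the 84 members, 9 (10.7%) had an IDR summit at a TSS, where 5.93% of protein-coding genes had one. The 9 were the initiation factor genes eIF1, eIF3c, eIF4EHP and eIF6, the elongation factor gene eEF1gamma, and the cytosolic synthetase genes GluProRS, IleRS, SerRS and ThrRS. None of the 14 mitochondrial synthetase genes was among them, and so few genes say little beside a share of 5.93%. The count was 3 without replicate 1 (3.57%), 5 without replicate 2 and 5 without replicate 4 (5.95% each), when a summit also had to lie in one of the 1143 strongest calls of both other replicates. The shares of protein-coding genes under that stricter rule were 2.93%, 3.42% and 3.28%, so without replicate 1 the members' share was near that of all genes. Genes with several start sites offer more windows. Of 55 members with 1 TSS 4 (7.27%) had an IDR summit, against 4.28% of such protein-coding genes, and of 29 members with 2 or more 5 (17.2%), against 10.5%.

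**Figure D1:**
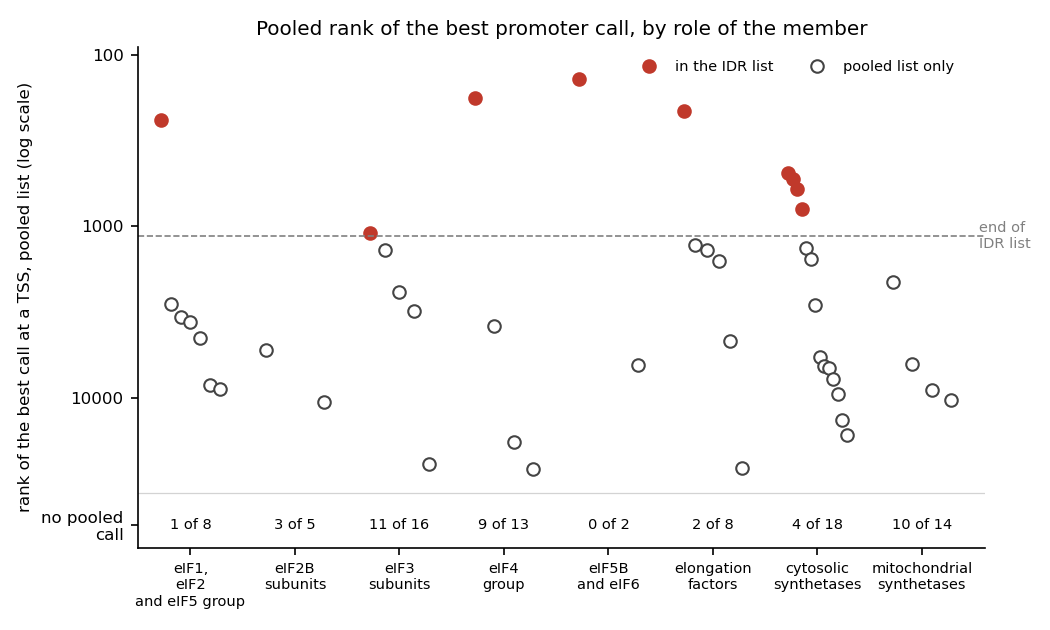
Rank of the strongest call at a TSS in the pooled list (vertical log axis, best rank at the top) for each member, by role. Filled points are in the IDR list, open points only in the pooled list, the dashed line is the end of the IDR list at rank 1143, and the bottom row counts members with no pooled call at a TSS. The 9 filled points fall in 6 of the 8 roles, with 4 in the cytosolic synthetases. The eIF2B subunits (5 genes) and the mitochondrial synthetases (14 genes) have 0, where 5.93% of protein-coding genes had an IDR summit.

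In the pooled list 44 members (52.4%) had a call at a TSS, beside 45% of protein-coding genes. Their median pooled rank was 3700, where protein-coding genes with such a call had a median of 6200. Among pooled calls also found in both remaining replicates, the medians of members and of protein-coding genes were 1313 and 1884 without replicate 1, 1369 and 2042 without replicate 4, and 2888 and 2859 without replicate 2. The members' better median thus did not hold in the calls shared by replicates 1 and 4. The counts differed by replicate. Replicate 1 had a call at 63 members (75%, beside 51.5%), replicate 2 at 23 (27.4%, beside 32.1%) and replicate 4 at 48 (57.1%, beside 40.4%). In all 3 replicate lists 16 members had a call (19%), close to the 16.6% of protein-coding genes. The pattern most often seen was a call in replicates 1 and 4 and none in replicate 2, at 25 members, and 18 members had a call in replicate 1 alone. The shares of protein-coding genes with these patterns were not computed. A call in exactly 2 replicates was seen at 31 members (36.9%, beside 22.7% of protein-coding genes). In exactly 1 replicate it was seen at 24 (28.6%, beside 28.8%). Replicate 2 limits the count in all 3 lists, since 41 members (48.8%) had a call in both other lists, beside 31.7% of protein-coding genes. Without replicate 1 the count was 18 (21.4%, beside 18.9%), and without replicate 4 it was 20 (23.8%, beside 21.8%), both near the share of all genes. Pooled calls were also held to the replicates, by asking that the summit lie inside a call of both remaining ones. That left 16 members (19%) without replicate 1, 33 (39.3%) without replicate 2 and 17 (20.2%) without replicate 4, beside 15.9%, 24.6% and 17.2% of protein-coding genes.

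Among the 1143 strongest calls of each replicate, members numbered 8 in replicate 1 (9.52%, beside 6.02% of protein-coding genes), 9 in replicate 2 (10.7%, beside 5.49%) and 8 in replicate 4 (9.52%, beside 5.53%). In all 3 replicates at this depth of the lists stood 3 members (3.57%, beside 2.58%), namely eIF1, eEF1gamma and GluProRS. With replicate 2 or replicate 4 left out there were 5 (5.95%, beside 3.64% and 3.44%), and without replicate 1 there were 3 (3.57%, beside 2.99%). Another 4 stood there in exactly 2 replicates (4.76%, beside 2.33% of protein-coding genes). These were eIF4EHP and IleRS in replicates 1 and 4 and SerRS and eIF6 in replicates 1 and 2. Exactly 1 replicate held 8 members at this depth (9.52%, beside 4.65%). They were ThrRS, AspRS and eIF2A in replicate 4, eIF3h in replicate 1, and eIF3c, eEF1alpha1, eEF5 and eEF2 in replicate 2.

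**Figure D2:**
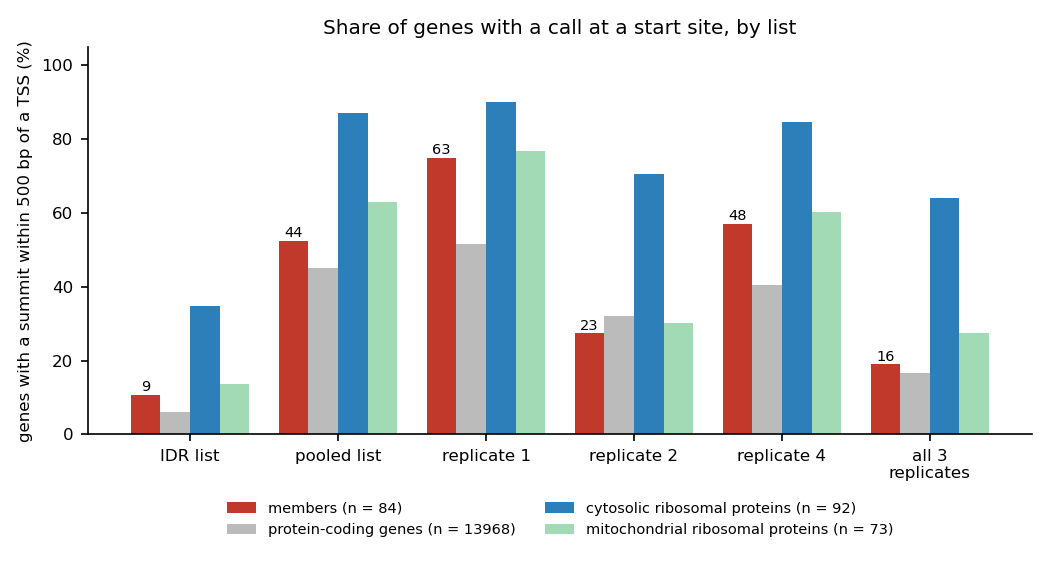
Percent of genes with a summit within 500 bp of a TSS (vertical axis) in each list, for the members, all protein-coding genes and the cytosolic and mitochondrial ribosomal protein genes; numbers over the first bars count members. The bar of the members stands above that of protein-coding genes in the IDR list and in replicates 1 and 4, and below it in replicate 2, while the cytosolic ribosomal protein genes stand higher in every list.

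The ribosomal protein genes set the scale at which the members can be read. Of 92 cytosolic ribosomal protein genes 34.8% had an IDR summit, 87% a pooled call and 64.1% a call in all 3 replicates. The same shares were 13.7%, 63% and 27.4% for 73 mitochondrial ribosomal protein genes, which lie nearer to the members' 10.7%, 52.4% and 19%.

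Of the 44 initiation factor genes 20 had a pooled call (45.5%, beside 45% of protein-coding genes) and 4 an IDR summit (9.09%, beside 5.93%). In all 3 replicate lists 7 had a call (15.9%, beside 16.6%). The pooled and 3-replicate shares were thus near those of all genes. The calls were spread over several complexes. eIF6, whose protein keeps the large subunit from joining too early, had the highest pooled rank of all members. Its call (2R, summit 23850422, signal 256) ranked 138 in the pool, with the summit 121 bp upstream of the TSS. It ranked 286 in replicate 1 (signal 61.6), 51 in replicate 2 (signal 147) and 8186 in replicate 4 (signal 19.2). It was thus the best-ranked member in replicate 2 and far down the list in replicate 4. The pooled call was 138 bp wide, where the usual width of the list is 370 bp.

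eIF4EHP encodes a cap-binding protein that, unlike eIF4E, does not recruit eIF4G and represses the messages it is brought to, among them caudal in the early embryo. Its call (3R, summit 24109161, signal 235) ranked 178 in the pool, 121 in replicate 1 (signal 83.2) and 135 in replicate 4 (signal 93.3), and it was the best-ranked member in replicate 1. Replicate 2 had no call at its TSS. The summits of both replicates with a call lay 292 and 140 bp upstream of the TSS.

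eIF1 encodes the factor that guards the choice of start codon. Its IDR call (3L, summit 3223011, signal 210) ranked 240 in the pool and 684, 214 and 221 in replicates 1, 2 and 4 (signals 43.1, 79.5 and 79.7). The summit lay 330 bp upstream of the eIF1 TSS and 51 bp upstream of a TSS of RpL28, a gene of the large ribosomal subunit that is read the other way. A weaker pooled call, of rank 1923, lay 128 bp upstream of eIF1. With a window of 250 bp, eIF1 was the member that left the IDR count, which was then 8 (9.52%, beside 4.54% of protein-coding genes).

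eIF3c encodes a core subunit of eIF3, the large complex on the small ribosomal subunit. Its call (2R, summit 17665644, signal 108) ranked 1096 in the pool and was the weakest of the 9. In replicates 1, 2 and 4 it ranked 1794, 718 and 5825 (signals 28.2, 45.5 and 22.1), so only replicate 2 held it among its strongest calls. The summits of replicates 2 and 4 lay 37 and 36 bp upstream of the TSS, and that of replicate 1 lay further upstream.

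Most other subunits of these complexes had weak calls or none in the pool. Of the 16 eIF3 genes 5 (31.2%) had a pooled call, below the 45% of protein-coding genes. In replicates 1, 2 and 4 a call was seen at 13 (81.2%), 4 (25%) and 8 (50%) of the 16. The shares of protein-coding genes there were 51.5%, 32.1% and 40.4%, so the direction depended on the list. After eIF3c the pooled calls were led by eIF3h (rank 1371), eIF3a (2406) and eIF3m (3120), with eIF3b at 24326. eIF3h ranked 520, 1740 and 3837 in replicates 1, 2 and 4 (signals 48.6, 29.4 and 26.1). eIF3a had a call in replicate 1 alone (rank 3606). None of the paralog pairs eIF3d1 and eIF3d2, eIF3f1 and eIF3f2, or eIF3g1 and eIF3g2 had a pooled call at a TSS.

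Of the genes for start codon recognition and the delivery of initiator tRNA, 7 of 8 had a pooled call (87.5%, beside 45%), from eIF1 down to eIF5 (rank 8846), the gene of the protein that triggers GTP hydrolysis on eIF2. eIF2A ranked 3605 in the pool but 1138 in replicate 4 (signal 42.5) and 1787 in replicate 1 (signal 28.2), with no call in replicate 2. eIF2alpha, whose product is the target of the stress kinases, had none in the pool and ranked 7969 in replicate 1 and 19031 in replicate 4. Of the 5 genes of eIF2B, the exchange factor that reloads eIF2, eIF2Bgamma (rank 5254) and eIF2Balpha (10627) had a pooled call (40%, near the 45%). eIF5B, whose product joins the subunits, ranked 6428.

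In the eIF4 group, which binds and unwinds the capped end of the message, 4 of 13 genes had a pooled call (30.8%, beside 45%). After eIF4EHP these were the helicase gene eIF4A (rank 3795), eIF4G2 (18270, though 1269 in replicate 4) and eIF4E5 (26245). The general cap-binding gene eIF4E1 had no pooled call at its 4 start sites and ranked 3374 in replicate 1 and 6875 in replicate 4. The scaffold gene eIF4G1 on chromosome 4 had no call at its TSS in any list, though 5 weaker pooled calls, of which the best ranked 5086, lay in the gene or within 500 bp of its ends.

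Of the 8 elongation factor genes 6 (75%, beside 45%) had a pooled call, with a median rank of 1480. eEF1gamma, whose protein holds together the complex that recharges eEF1alpha, led them. Its call (3R, summit 29220134, signal 220) ranked 213 in the pool and 527, 250 and 113 in replicates 1, 2 and 4 (signals 48.4, 74.3 and 99.5), and it was the best-ranked member in replicate 4. The summit in the pool lay 38 bp upstream of the TSS, and those of the replicates 124, 4 and 35 bp upstream.

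Behind it came eEF1alpha1, which encodes the main carrier of charged tRNAs, eEF5, whose product (eIF5A in humans) helps past difficult peptide bonds, and the translocase gene eEF2. Their pooled ranks were 1284, 1369 and 1592, below the end of the IDR list. In replicate 2 they ranked 453, 817 and 1031 (signals 56.7, 42.3 and 37.4), in replicate 1 2381, 1568 and 7616 (signals 24.9, 29.8 and 15.1), and in replicate 4 6436, 2237 and 1610 (signals 21.2, 32.3 and 36.7). Each thus stood highest in replicate 2. With eEF1gamma, 4 of the 8 genes (50%) were among the strongest 1143 calls of replicate 2, beside 5.49% of protein-coding genes. In replicate 1 and in replicate 4 it was 1 of 8 (12.5%), beside 6.02% and 5.53%. The cytosolic ribosomal protein genes among these strongest calls numbered 34 of 92 in replicate 2, 23 in replicate 1 and 22 in replicate 4. The second eEF1alpha gene, eEF1alpha2, ranked 25631 in the pool, and eEF1delta and eEFSec had no pooled call at a TSS.

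**Figure D3:**
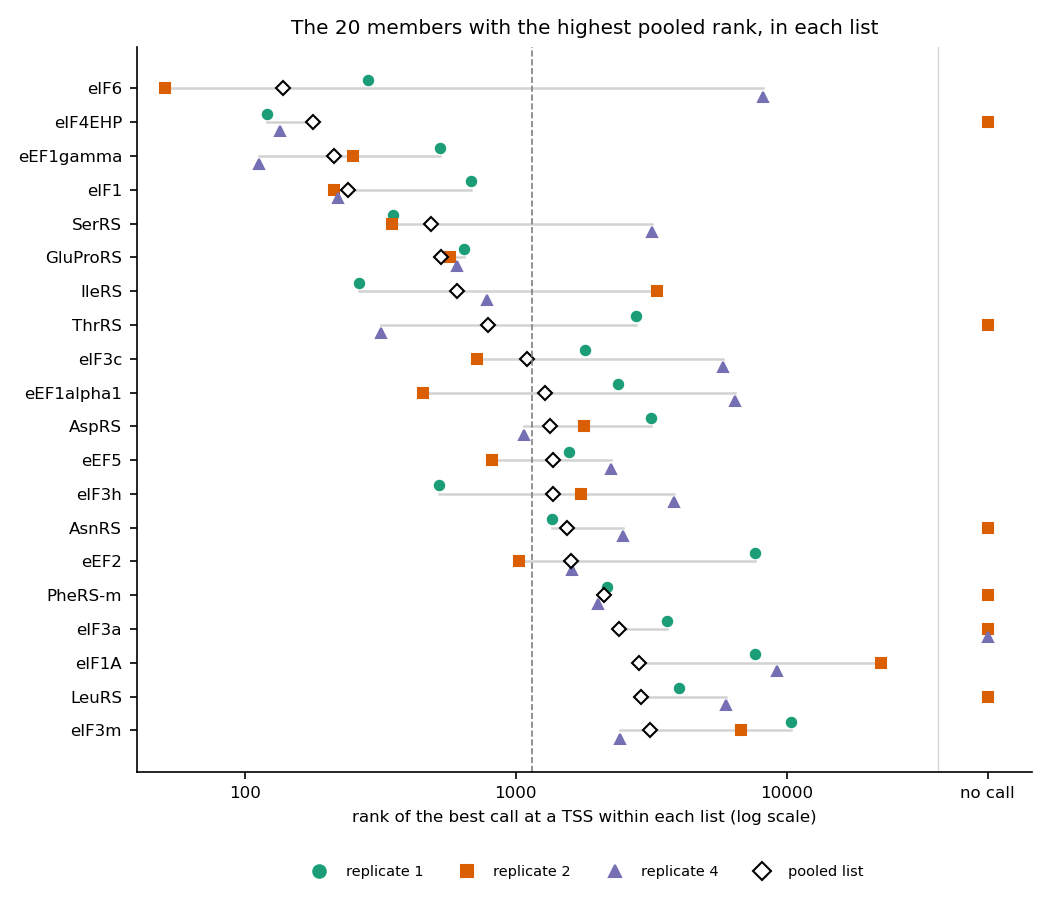
Rank of the strongest call at a TSS (horizontal log axis, best rank at the left) in the pooled list and in each replicate for the 20 members with the highest pooled rank, with missing calls at the right and replicates set slightly apart in height. The dashed line is rank 1143. The ranks of GluProRS lie close together, from 531 to 646, while those of eIF6 run from 51 to 8186 and replicate 2 lacks a call for eIF4EHP and ThrRS.

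Among the cytosolic synthetase genes 14 of 18 had a pooled call (77.8%, beside 45%) and 4 an IDR call (22.2%, beside 5.93%). GluProRS, a single gene for the glutamyl and prolyl enzymes, varied least. Its call (3R, summit 23958529, signal 152) ranked 531 in the pool and 646, 574 and 606 in replicates 1, 2 and 4 (signals 44.1, 51 and 54.8). The summits lay 75 to 227 bp upstream of the TSS. SerRS (2L, summit 3037365, signal 156) ranked 488 in the pool, 353 in replicate 1 (signal 56.9), 350 in replicate 2 (signal 63) and 3177 in replicate 4 (signal 28). It was the only one of the 9 with the summit downstream of the TSS, by 38 bp.

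IleRS (3L, summit 22288498, signal 142) ranked 606 in the pool, 264 in replicate 1 (signal 63.3), 3321 in replicate 2 (signal 23.9) and 780 in replicate 4 (signal 49.2). ThrRS (2L, summit 12103614, signal 127) ranked 789 in the pool, 2784 in replicate 1 (signal 23.1) and 318 in replicate 4 (signal 70.4), with no call in replicate 2. These summits lay 167 and 137 bp upstream. The charging enzymes for the remaining amino acids ranked lower. AspRS (rank 1342) ranked 3147, 1781 and 1071 in replicates 1, 2 and 4 (signals 22, 29.1 and 43.6). AsnRS (rank 1548) ranked 1356 in replicate 1 (signal 31.9) and 2483 in replicate 4 (signal 30.9) and had no call in replicate 2. CysRS had the lowest pooled rank of this role, 16470, and a call in replicate 1 alone. GlnRS, HisRS, LysRS and TyrRS had no pooled call at a TSS and a call in 1 replicate each.

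The mitochondrial synthetases are also encoded in the nucleus, and 4 of their 14 genes had a pooled call (28.6%, beside 45%). PheRS-m led with a pooled rank of 2106, 2166 in replicate 1 (signal 26) and 2006 in replicate 4 (signal 33.8), and had no call in replicate 2. AspRS-m ranked 6329, AlaRS-m 9040 and LeuRS-m 10345. Among the replicates, LeuRS-m had a call in replicate 2 and in no other, of rank 1873 (signal 28.5). None of the 14 had a call in all 3 replicates, beside 16.6% of protein-coding genes, and 14 genes are few for such a comparison. For 13 amino acids a member of each compartment could be set side by side, with GluProRS as the partner of GluRS-m. The cytosolic gene had the better pooled rank, or the only pooled call, in 12 of these pairs, and neither gene had one for tyrosine. In single replicates 3 pairs went the other way. TrpRS-m ranked 4937 in replicate 1, where TrpRS had no call. In replicate 2 AlaRS-m ranked 5273 and LeuRS-m 1873, where AlaRS and LeuRS had none.

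Ranks of a member in different replicates were alike in part. Spearman's rho was 0.72 between replicates 1 and 2 over 20 members called by both, 0.41 between replicates 1 and 4 over 41 members and 0.41 between replicates 2 and 4 over 18. All lists share 1 control alignment, and members without a call in both replicates are not in these values.

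The calls lay mostly just upstream of the start sites. Of the 44 pooled calls 36 were upstream and 8 at or downstream of the TSS, with a median of -137 bp, the same as the median of all protein-coding genes with a pooled call. Of the 9 IDR summits 8 were upstream, and 3 lay within 100 bp of the TSS. Cytosolic ribosomal protein genes had their pooled summits closer, at a median of -48 bp. For the 9 members the replicate summits spread over 37 bp (IleRS) to 152 bp (GluProRS and eIF4EHP).

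**Figure D4:**
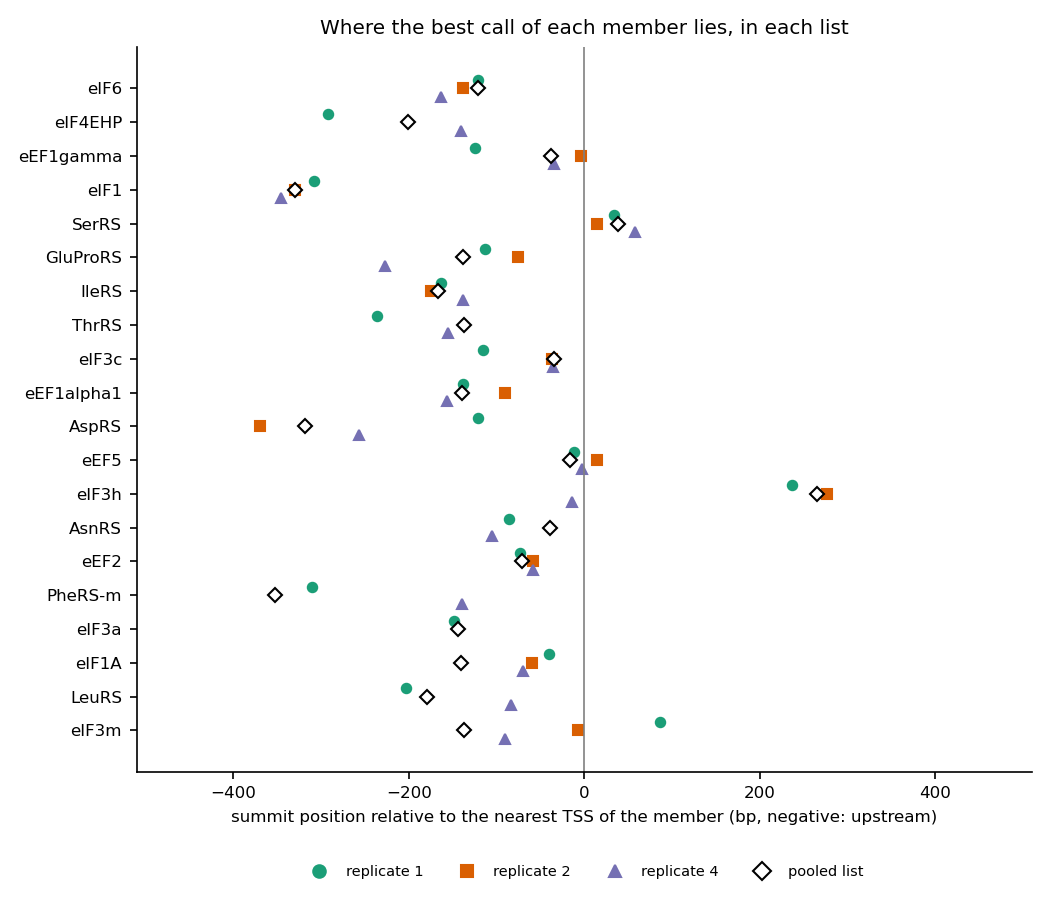
Position of the summit of the strongest call relative to the nearest TSS of the member (horizontal axis in bp, upstream negative) in the pooled list and in each replicate, for the 20 members with the highest pooled rank. Most points lie upstream, none of them by more than the 369 bp of AspRS in replicate 2; SerRS and eIF3h have their pooled summits downstream, by 38 and 265 bp.

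Many of these promoters are shared with a neighbour, so a summit cannot be given to 1 gene alone. Of the 9 IDR summits 6 (66.7%) also lay within 500 bp of a TSS of another protein-coding gene, and 58.8% of the 828 protein-coding genes with an IDR summit shared theirs in this way, a shared summit counting once for each gene. In the pooled list this held for 27 of 44 members (61.4%) and for 42.7% of protein-coding genes. The neighbours of the 6 were RpL28 (eIF1), CG18428 (eIF4EHP), CG17260 (SerRS), AP-1sigma (GluProRS), Hem (IleRS) and Patsas (ThrRS), each on the opposite strand from its member. AP-1sigma encodes a subunit of a clathrin adaptor and Hem a subunit of the actin regulator SCAR. The neighbour's TSS was nearer to the summit than the member's at eIF1 (51 against 330 bp), GluProRS (122 against 138 bp) and eIF4EHP (175 against 201 bp). At eIF6 the start of asRNA:CR45928 was nearer, at 92 against 121 bp. With each summit given only to the gene of the nearest TSS, 5 members kept an IDR summit, namely eEF1gamma, eIF3c, IleRS, SerRS and ThrRS (5.95%, beside 4.17% of protein-coding genes).

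Just below the IDR list, whose weakest call had a signal of 106, pooled ranks up to 2286 held 7 more members. These were eEF1alpha1 (signal 99.1), AspRS (96.9), eEF5 (96), eIF3h (96), AsnRS (90.2), eEF2 (89) and PheRS-m (76). The share of protein-coding genes in this range of ranks was not computed, so no excess of members can be read from the count. The members of the IDR list closest to its end were eIF3c (108) and ThrRS (127).

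At the other end, 40 members had no pooled call at a TSS, and 12 of these had none in any replicate either. A pooled call was present at 52.4% of members and 45% of protein-coding genes, so members lacked one somewhat less often. The 12 were eIF2Bbeta, eIF3d2, eIF3l, eIF4B, eIF4E4, eIF4E7, eIF4G1, eIF4H2, eEFSec, AsnRS-m, CysRS-m and TyrRS-m. TrpRS had a pooled call (rank 9580) and none in a replicate. With TrpRS, 13 members (15.5%) had no call in any replicate, beside 31.9% of protein-coding genes. The remaining 28 without a pooled call were eIF2alpha, eIF2Bdelta, eIF2Bepsilon, eIF3d1, eIF3e, eIF3f1, eIF3f2, eIF3g1, eIF3g2, eIF3i, eIF3j, eIF3k, eIF4E1, eIF4E3, eIF4E6, eIF4H1, eEF1delta, GlnRS, HisRS, LysRS, TyrRS, ArgRS-m, GluRS-m, IleRS-m, MetRS-m, SerRS-m, TrpRS-m and ValRS-m. Of the 40, 18 had a pooled call elsewhere in the gene or within 500 bp of its ends. The share of protein-coding genes under that rule was not computed, so nothing particular to members can be read from it.

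Promoter sequence was compared over the 250 bp before and 50 bp from the start of the canonical transcript on. The motifs were TATCGATA (the DRE), the shorter CGATA (the BEAF-32 core, which every DRE contains on both strands), CACGTG (the E-box of Myc and Max), GAGAG (the GAGA element), GGTCACAC (the core of Motif 1) and TATAAA (the TATA box), on both strands. The TCT initiator was read on the gene's strand within 10 bp of the TSS, as the letters CTTT with C or T before and after. A DRE stood in 19 of 84 member promoters (22.6%), in 8.94% of all protein-coding promoters and in 30.4% of those of cytosolic ribosomal proteins. By role it stood in 12 of 44 initiation factor promoters, 2 of 8 elongation factor promoters, 4 of 18 cytosolic and 1 of 14 mitochondrial synthetase promoters. Of the 9 members with an IDR summit 4 held a DRE, namely eEF1gamma, eIF3c, eIF6 and IleRS, and of 828 protein-coding genes with an IDR summit 11.7% did.

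The TCT initiator stood at 8 members (9.52%), at 2.04% of protein-coding genes and at 48.9% of cytosolic ribosomal protein genes. The 8 were eEF1delta, eEF2, eEF5, eIF3f1, eIF3i, eIF4A, ThrRS and TyrRS, of which ThrRS had an IDR summit. The BEAF-32 core was found in 61.9% of member promoters and 46.9% of all, the E-box in 7.14% and 4.25%, Motif 1 in 9.52% and 7.52% and the TATA box in 48.8% and 45.3%. The GAGA element stood in 13 member promoters (15.5%), where 30.2% of all promoters and 34.8% of those with an IDR summit held it. Within 100 bp of the summit, 2 of the 9 IDR calls held a DRE, where 4.36% of 596 IDR summits at protein-coding start sites did. The GC content of these windows had a median of 30.3% (22.4% to 42.8%) at members and of 33.8% over the 596.

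**Figure D5:**
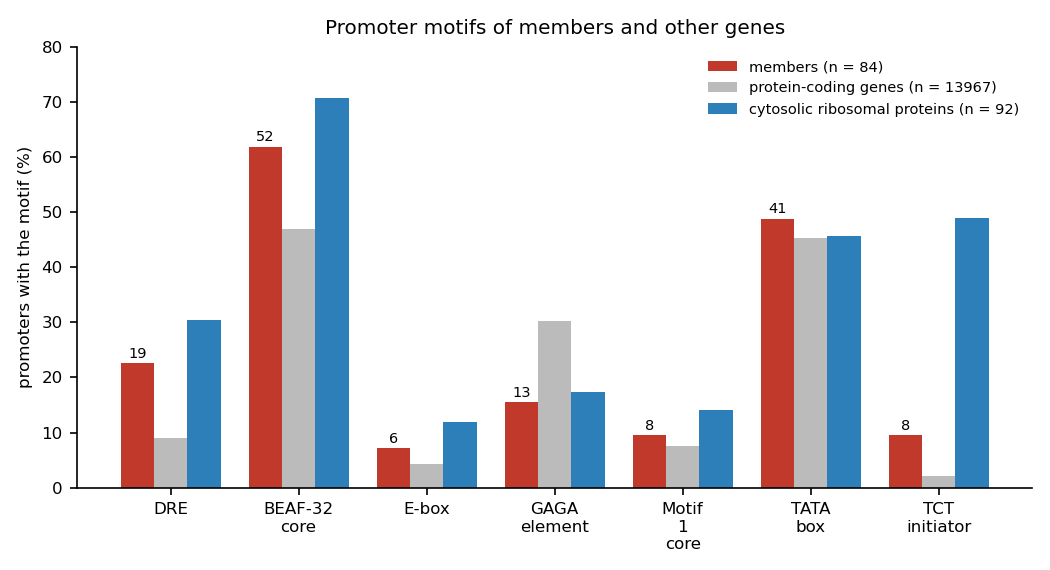
Percent of promoters (vertical axis) with each motif among the 84 members, protein-coding genes and cytosolic ribosomal protein genes, with member counts over the bars. The bar of the members lies between those of the other groups for the DRE (22.6%) and the TCT initiator (9.52%), and below both for the GAGA element (15.5%).

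Other genes of the same pathway, listed by name and found for 24 of 25 symbols, had an IDR summit at 2 (8.33%, beside 5.93% of protein-coding genes) and a pooled call at 16 (66.7%, beside 45%). Both were genes of the control of initiation. Thor, the fly 4E-BP that blocks eIF4E, ranked 952 in the pool and 913, 1408 and 1208 in replicates 1, 2 and 4, with the pooled summit 7 bp upstream of the TSS. Gcn2, the kinase that phosphorylates eIF2alpha when uncharged tRNA builds up, ranked 1017 in the pool and 885, 814 and 7328 in the replicates, with the pooled summit 249 bp upstream. The termination genes eRF1 and eRF3 and the recycling gene pix ranked 1482, 2276 and 2442. Both subunits of the cytosolic phenylalanyl enzyme, which the symbol rule left out, ranked 8831 (alpha-PheRS) and 8331 (beta-PheRS). Of 6 mitochondrial translation factor genes 4 had a pooled call, with mEFTu1 first at rank 5234.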

How the data were processed

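Anti-GFP ChIP-seq peak lists of the 3 replicates were read as deposited. Per the deposited file descriptions, the authors called peaks on each replicate's dm6 alignment and on the pool, with 1 control alignment, and derived the optimal IDR list from these lists. The signal of each call was deposited by the authors' peak caller. No aligner, caller or IDR cutoff is named in the sources used here. The dm3 lists were not used here.

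Calls were ranked by signal within each list. TSSs came from Ensembl release 115 (BDGP release 6, the build of the lists), without transposable elements and 81 genes off the arms, which left 23694 TSSs. Call ends lay within the chromosome lengths of the RefSeq release 6 sequence, from which the sequences were read. The assignment was checked against an exhaustive search on planted summits. Python 3.11.15, numpy 2.4.6, pandas 2.3.3 and scipy 1.17.1 were used.

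The members, lists and motifs were chosen with earlier results of these data known. Named were members with an IDR summit, the next 8 by pooled rank, the best of each replicate, those with a strong call (rank up to 1143) but none in some replicate, and the highest and lowest of each role. Members without a pooled call, and a few further ones given to complete a complex, were named after their values were seen. Alternatives were TSS windows of 250 and 1000 bp, overlap in place of summit distance, nearest TSS only, shorter or longer lists and each replicate left out. The requirement of a strong call in all 3 replicates was added after seeing the data. Ranks carry no error of their own, and their precision is unknown without depth.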

Additional observations from a re-analysis of the deposited data

How the results depend on the processing

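Counts of members kept to within 1.5 times under most alternatives, and the exceptions follow, each with the share of protein-coding genes under the same rule. Members with an IDR summit numbered 5 in place of 9 with the nearest TSS only (4.17% of protein-coding genes), 3 when the summit had to lie in a strong call of all 3 replicates (2.5%; chosen after seeing the data), and 3 to 5 with a replicate left out (2.93% to 3.42%). Members with a strong call in all 3 replicates numbered 5 in place of 3 with a window of 1000 bp (3.17%), 1 with the nearest TSS only (1.51%), 1 with lists of 571 calls (1.38%), and 3 to 5 with a replicate left out (2.99% to 3.64%). Each count of 1 is 1.19% of members, below the share of all genes. With a replicate left out, a pooled call found in both others was seen at 16 to 33 members in place of 44 (15.9% to 24.6%), and a call in both other lists at 18 to 41 in place of 16 (18.9% to 31.7%). With a replicate left out, the median pooled rank of members, 3700, ran from 1313 to 2888, and that of protein-coding genes from 1884 to 2859. Under the other windows, overlap and nearest TSS only, the members' median ran from 3120 to 5254. That of protein-coding genes ran there from 5523 to 7276. Both were highest with the nearest TSS only. Without replicate 2 members no longer had the better median (2888 against 2859). Among the 571 strongest IDR calls there were 6 members (3.22%). The window of 1000 bp gave 11 (6.97%), adding eIF2Bbeta and LeuRS-m. No paired analysis was possible because there is 1 group. Depth is unknown, so a missing call cannot be told apart from a shallow library.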

Other observations

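Some members lie close to a strong IDR peak that falls outside the window of 500 bp. The summit of the strongest call of the whole pooled list (signal 1018) lay 692 bp upstream of the TSS of eIF2Bbeta, a gene with no call of its own in any list. An IDR summit of rank 252 (signal 205) lay 832 bp upstream of LeuRS-m. IDR summits of ranks 650 and 722 lay 1236 bp upstream of a TSS of eEF1alpha1 and 1299 bp upstream of that of eIF3d1. A pooled call of rank 1427, which is not in the IDR list, lay 1337 bp downstream of the start of eIF3g1 and past the gene's 3′ end. eIF3g1 had no pooled call at its TSS.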
